A study of Arabidopsis thaliana with 12 samples.

Results

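On the long arm of chromosome 4 of Arabidopsis thaliana, the loci from AT4G33510 to AT4G40090 form a stretch whose transcripts were raised in gra1-D, in gra2-D and also in gra3-D, 3 grandifolia mutants. The 59 genes described here are those of the stretch that gave the brightest signal: they were selected on a mean log2 value of 10 or more over the 3 wild-type (WT) arrays. They were drawn from 556 rows of the stretch and from 20777 rows in all, after 6 named loci had been set aside, of which 5 are on the table and 3 reach a WT mean of 10. The WT level chose these genes, and the difference between the mutants and WT had set the limits of the stretch, so both are given as descriptions. Calls and adjusted p-values of these genes against WT, by limma over all rows, are printed to describe how far single genes stand from the spread between arrays, and nothing is read from them.

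The data come from 12 one-colour ATH1 arrays, 3 for each of gra1-D, gra2-D and gra3-D and 3 for WT, each array standing for 1 biological replicate. All 4 groups are labelled as Col-0, and the RNA came from the vegetative part of the plants at seedling stage 1.03. They were kept at 22 °C on MS medium in days of 16 h light and nights of 8 h. The series title links the mutants with a chromosomal duplication. DNA copy number was not measured on these arrays, and nothing here says whether the lines are heterozygous or how they were derived.

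Grandifolia mutants take their name from large leaves. In plants that carry a chromosome segment in an extra copy, transcripts of the genes on it are commonly more abundant, and single genes can depart from the common ratio. Many of the genes described here belong to leaf metabolism: the chloroplast fixes carbon in the Calvin-Benson cycle, photorespiration salvages the product of Rubisco's oxygenase reaction in chloroplasts, peroxisomes and mitochondria, and the vacuolar proton pump acidifies the vacuole to drive transport and turgor.

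The tissue label was set against marker genes. The green-tissue genes RCA and GAPA lay near the top of the scale on all arrays, RCA between 14.18 and 14.27 and GAPA between 13.76 and 13.94 log2 units, and these 2 were the measured ones of 7 listed. Of 9 root markers, 8 were measured and 4 of them (IRT1, RHD6, COBL9 and EXPA7) stayed under 5, which is close to background, on all arrays. PYK10 was between 10.45 and 11.28 and SCR between 8.03 and 8.32. NRT2.1 was between 4.65 and 5.09, while SHR lies in the raised stretch itself. The part of root cells in the results was not tested. Replicate arrays of a group correlated at 0.996 to 0.997 over all rows, and no pair of arrays held the same values.

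All 59 genes had a higher mean in each mutant than in WT. The median fitted change was 0.74 log2 units for gra1-D, 0.70 for gra2-D and 0.75 for gra3-D, which is 1.67-fold, 1.62-fold and 1.68-fold. Taken array by array against the WT mean, the median over the 59 genes was 0.74 ± 0.023 on gra1-D arrays, 0.72 ± 0.018 on gra2-D arrays and 0.75 ± 0.0070 on gra3-D arrays, against -0.0023 ± 0.031 on WT arrays (SD, n = 3 each). The single arrays gave 0.76, 0.73 and 0.72 for gra1-D, 0.74, 0.70 and 0.72 for gra2-D, 0.75, 0.74 and 0.76 for gra3-D, and 0.03, -0.04 and 0.00 for WT. The 9 mutant arrays thus lay close together and far above the WT arrays. Over all 20777 rows the median fitted change was -0.02 for gra1-D, -0.00017 for gra2-D and -0.02 for gra3-D, and over the 1348 equally bright rows outside the raised part of chromosome 4 it was -0.08, -0.08 and -0.07. The 3 comparisons share the same WT arrays. In seedling tissue, more cells of a type and more RNA per cell cannot be told apart.

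Called changes, at an adjusted p under 0.05 by limma over all rows, numbered 57 of the 59 genes for gra1-D, 58 for gra2-D and 57 for gra3-D, all of them higher and 0 lower. Of all rows, 2.82% were called higher for gra1-D, 5.24% for gra2-D and 3.13% for gra3-D, and 2.76%, 6.23% and 2.97% were called lower. The stretch was bounded on this same difference. CAT2 was called in none of the mutants and MIPS1 in gra2-D alone. With replicate number as a block in the fit, MIPS1 was called in all 3 mutants and CAT2 in gra3-D. The values of the 3 mutant arrays lay above all 3 WT values for 58 genes for gra1-D, 57 for gra2-D and 58 for gra3-D, where 8.36%, 12.3% and 8.92% of all rows did so. For 57 genes every one of the 9 mutant arrays exceeded every WT array, CAT2 and MIPS1 being the exceptions.

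**Figure D1:**
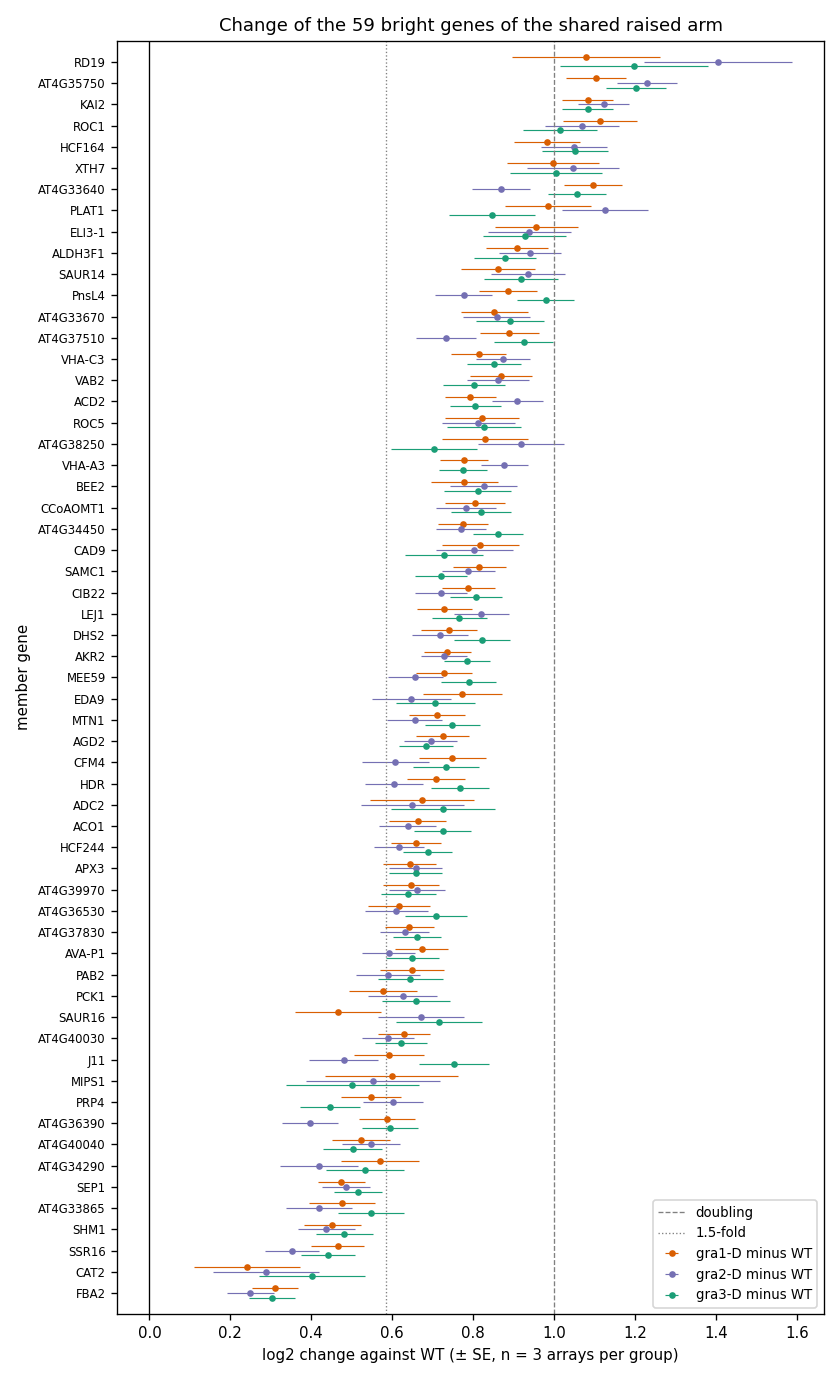
Log2 change against WT of each of the 59 genes (points, with bars of 1 SE, n = 3 arrays per group), ordered by the mean of the 3 mutants, with lines at 1.5-fold and at a doubling. All points lie above 0. RD19 and AT4G35750 stand at the upper end, FBA2 and CAT2 at the lower end, and for 52 genes the 3 changes lie within 0.2 of each other.

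The rise was rarely a doubling. Between the lowest and the highest gene the change ran from 0.24 to 1.11 log2 units for gra1-D, 0.25 to 1.40 for gra2-D and 0.30 to 1.20 for gra3-D. A change of 1 or more was reached by 5 genes in gra1-D and by 7 genes in each of gra2-D and gra3-D, which is 8.47% and 11.9% of the 59. Among the 286 rows of the stretch with a WT mean of 6 to 10, the shares were 27.3% for gra1-D, 26.2% for gra2-D and 24.8% for gra3-D. At the other end, 11 genes for gra1-D, 11 for gra2-D and 10 for gra3-D changed by less than 1.5-fold (18.6%, 18.6% and 16.9%), where 6.29%, 8.04% and 6.99% of the rows at 6 to 10 stayed under that size. Of the 59 genes, 4 were at or above a doubling in all 3 mutants, AT4G35750, KAI2, ROC1 and RD19. A group of 8 stayed under 1.5-fold in all 3: FBA2, CAT2, SHM1, SEP1, SSR16, AT4G33865, AT4G34290 and AT4G40040. These counts are those of the main fit. XTH7 and HCF164 missed a doubling in gra1-D alone, at 0.998 and 0.98, and ROC1 barely passed it in gra3-D, at 1.01 (SE 0.0924). Centring the arrays on chromosomes 1, 2, 3 and 5 raised the median changes to 0.78, 0.74 and 0.78. Genes near a limit may therefore cross it.

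The size of the change declined with signal level. In the stretch, the median change in gra1-D was 0.90 at a WT mean of 6 to 8 (167 rows), 0.87 at 8 to 10 (119 rows), 0.78 at 10 to 11 (31 rows), 0.73 at 11 to 12 (20 rows) and 0.47 at 12 and over (8 rows). The same classes gave 0.90, 0.89, 0.77, 0.71 and 0.43 in gra2-D and 0.93, 0.88, 0.80, 0.74 and 0.46 in gra3-D. Below 6, where array values approach background, 211 rows had medians of 0.20 for gra1-D, 0.19 for gra2-D and 0.17 for gra3-D. The WT mean enters both the class and the change, so an error in it moves them in opposite directions. With classes set by the mean over all 12 arrays, the medians at 12 and over (14 rows) were 0.53 for gra1-D, 0.57 for gra2-D and 0.53 for gra3-D, still the lowest of the classes from 8 upward. Outside the raised part of the chromosome the medians of the same classes stayed between -0.13 and 0.02, and at 12 and over (253 rows) they were -0.05 for gra1-D, -0.04 for gra2-D and -0.04 for gra3-D. In gra2-D the raised stretch reaches further, over 202 rows before AT4G33510, and there the medians were 0.87 at 6 to 8 (63 rows), 0.89 at 8 to 10 (54 rows), 0.69 at 10 to 11 (9 rows), 0.77 at 11 to 12 (3 rows) and 0.45 at 12 and over (2 rows). In gra3-D the medians of those rows were 0.03 at 6 to 8, 0.01 at 8 to 10 and -0.06 at 10 to 11, but the upper deciles were 0.97, 0.90 and 0.86, so some of these rows were raised in gra3-D too. In gra1-D the upper deciles were 0.12, 0.11 and -0.0077. The highest value on any array was 14.70, and 17 rows had a WT mean above that of the brightest of the 59 genes. The part that the response of the array at high signal has in the size of the change was not tested.

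**Figure D2:**
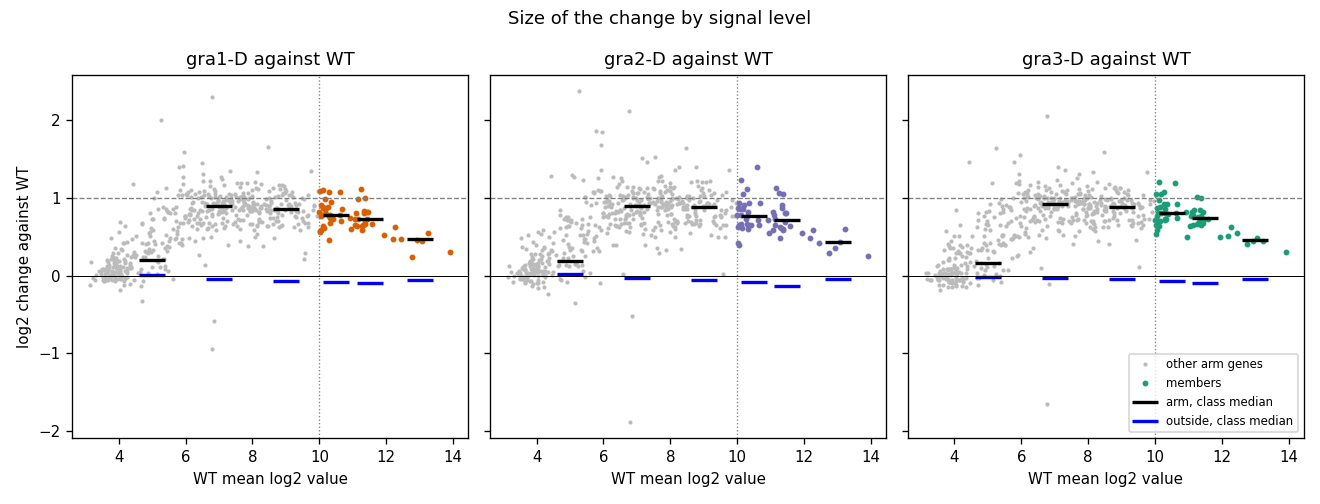
Log2 change against WT by WT mean log2 value for the genes of the raised stretch, 1 panel per mutant, with the 59 genes at 10 or more in colour. Black bars are the medians of level classes in the stretch, which is "arm" in the legend. Blue bars are those of rows outside the raised part of chromosome 4, without the 202 rows before AT4G33510. The black bars fall to 0.47, 0.43 and 0.46 at 12 and over, and the blue bars stay near 0.

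Several genes lay within 0.1 of the threshold at 10. Just inside it lay SAMC1 with a WT mean of 10.0012, PCK1 and AT4G34290 (both 10.02), AT4G33640 (10.03), AT4G36390 (10.05), ALDH3F1 and EDA9 (10.05 and 10.06), VHA-A3 (10.06) and VAB2 (10.09). Just outside lay BGAL3 at 9.97, with changes of 1.09 for gra1-D, 0.94 for gra2-D and 0.97 for gra3-D, and CAP1 at 9.92, with changes of 0.78, 0.77 and 0.82. The highest WT mean of the 59 was 13.91 and the median 10.92. Signal depends on the probes of a gene, so an order of levels is one of signal and not of transcript number.

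Genes of photosynthesis and photorespiration had the lowest medians among the roles, 0.47 for gra1-D, 0.49 for gra2-D and 0.52 for gra3-D over 7 genes, and their median WT mean was 12.19, beside 10.92 over all 59 genes. FBA2, the chloroplast fructose-bisphosphate aldolase of the Calvin-Benson cycle, had 14.20, 14.24 and 14.22 on the gra1-D arrays, 14.17, 14.14 and 14.17 on the gra2-D arrays, 14.23, 14.19 and 14.22 on the gra3-D arrays and 13.96, 13.87 and 13.90 on the WT arrays. All mutant values of FBA2 lay above all WT values, with replicates within 0.1 of each other, yet the change was the smallest of the 59 genes on average: 0.31 for gra1-D, 0.25 for gra2-D and 0.30 for gra3-D (SE 0.0576 each), or 1.24-fold for gra1-D, 1.19-fold for gra2-D and 1.23-fold for gra3-D. SHM1, the mitochondrial serine hydroxymethyltransferase that turns photorespiratory glycine into serine, had 13.49, 13.61 and 13.45 on the gra1-D arrays, 13.55, 13.47 and 13.48 on the gra2-D arrays, 13.49, 13.59 and 13.56 on the gra3-D arrays and 13.14, 13.08 and 12.97 on the WT arrays. The groups of SHM1 did not overlap, and the changes were 0.45 for gra1-D, 0.44 for gra2-D and 0.48 for gra3-D (SE 0.0703).

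CAT2, the peroxisomal catalase that removes the hydrogen peroxide of photorespiration, had 13.03, 12.93 and 13.04 on the gra1-D arrays, 13.22, 12.80 and 13.12 on the gra2-D arrays, 13.18, 12.97 and 13.33 on the gra3-D arrays and 13.02, 12.57 and 12.68 on the WT arrays. The highest WT value of CAT2, on array 1, lay inside the range of each mutant, and the changes of 0.24 for gra1-D, 0.29 for gra2-D and 0.40 for gra3-D (SE 0.131) were not called. Without WT array 1 the change in gra3-D was 0.53 and was called (limma adjusted p = 0.0317), and with the replicate block it was called too (0.0204). SEP1, a stress-enhanced protein of the thylakoid membrane, had 12.67, 12.69 and 12.62 on the gra1-D arrays, 12.69, 12.68 and 12.65 on the gra2-D arrays, 12.67, 12.71 and 12.73 on the gra3-D arrays and 12.19, 12.14 and 12.23 on the WT arrays. Replicates of SEP1 differed little and the groups did not overlap, with changes of 0.47 for gra1-D, 0.49 for gra2-D and 0.52 for gra3-D (SE 0.0589).

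The remaining 3 genes of this group act in the building of thylakoid complexes and were dimmer. HCF164, a thioredoxin-like protein needed for the cytochrome b6f complex, had 11.16, 11.08 and 11.23 on the gra1-D arrays, 11.22, 11.30 and 11.16 on the gra2-D arrays, 11.08, 11.28 and 11.32 on the gra3-D arrays and 10.28, 10.10 and 10.15 on the WT arrays. Every mutant value of HCF164 exceeded every WT value, and its changes, 0.98 for gra1-D, 1.05 for gra2-D and 1.05 for gra3-D (SE 0.0818), were near a doubling. PnsL4, a lumenal subunit of the chloroplast NDH complex, changed by 0.89 for gra1-D, 0.78 for gra2-D and 0.98 for gra3-D, and HCF244, an assembly factor of photosystem II, by 0.66 for gra1-D, 0.62 for gra2-D and 0.69 for gra3-D.

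**Figure D3:**
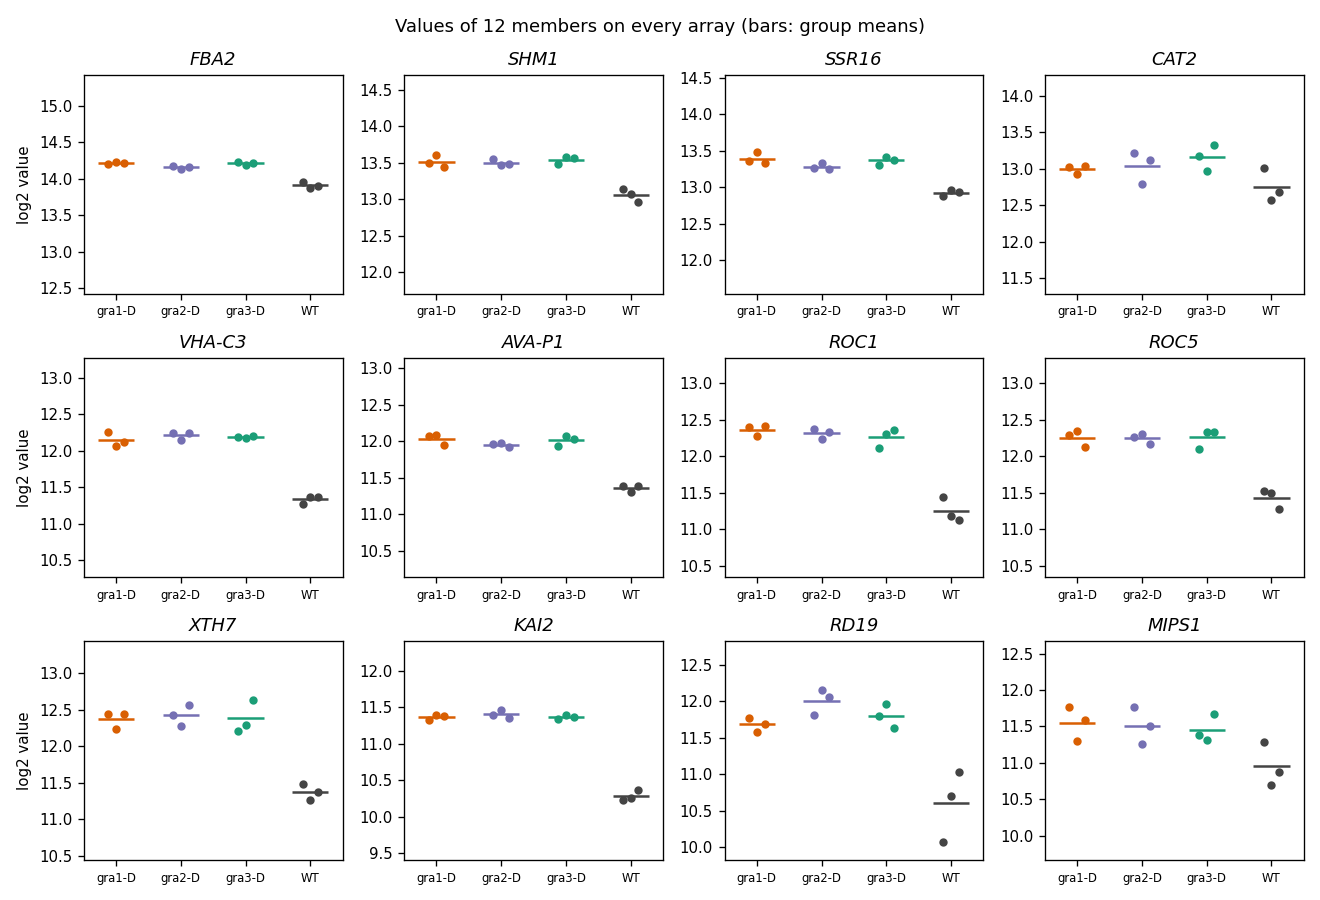
Log2 values of 12 of the 59 genes on every array (points) with group means (bars), gra1-D, gra2-D and gra3-D to the left of WT, all panels with the same height of 3 log2 units. In 10 panels the WT points lie below all mutant points. CAT2 and MIPS1 overlap, and WT array 1 of RD19 lies at 10.08, below the other WT arrays.

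The 7 genes of other plastid functions had medians of 0.73 for gra1-D, 0.61 for gra2-D and 0.77 for gra3-D. SSR16, a protein of the small subunit of the plastid ribosome, was the brightest of them. It had 13.36, 13.49 and 13.34 on the gra1-D arrays, 13.26, 13.33 and 13.25 on the gra2-D arrays, 13.31, 13.42 and 13.38 on the gra3-D arrays and 12.88, 12.97 and 12.93 on the WT arrays. The groups did not overlap and the changes of SSR16 were 0.46 for gra1-D, 0.35 for gra2-D and 0.44 for gra3-D (SE 0.0663). HDR, which makes the last step of the plastid isoprenoid pathway, changed by 0.71 for gra1-D, 0.60 for gra2-D and 0.77 for gra3-D. ACD2, the red chlorophyll catabolite reductase of chlorophyll breakdown, changed by 0.79 for gra1-D, 0.91 for gra2-D and 0.80 for gra3-D. LEJ1, a CBS-domain protein that acts on plastid thioredoxins, changed by 0.73 for gra1-D, 0.82 for gra2-D and 0.77 for gra3-D, and AKR2, an ankyrin-repeat protein that guides proteins to the chloroplast outer envelope, by 0.74 for gra1-D, 0.73 for gra2-D and 0.79 for gra3-D. CFM4, a CRM-domain protein of chloroplast RNA processing, changed by 0.75 for gra1-D, 0.61 for gra2-D and 0.73 for gra3-D, and J11, a chloroplast J-domain co-chaperone, by 0.59 for gra1-D, 0.48 for gra2-D and 0.75 for gra3-D.

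Enzymes and carriers of amino acid, methyl donor and lignin metabolism changed by like amounts: the 9 genes ran from 0.67 to 0.96 for gra1-D, 0.65 to 0.94 for gra2-D and 0.68 to 0.93 for gra3-D. In amino acid synthesis, DHS2, the entry enzyme of the shikimate pathway, changed by 0.74 for gra1-D, 0.72 for gra2-D and 0.82 for gra3-D, AGD2, an aminotransferase of lysine synthesis, by 0.72 for gra1-D, 0.70 for gra2-D and 0.68 for gra3-D, and EDA9, a phosphoglycerate dehydrogenase of serine synthesis, by 0.77 for gra1-D, 0.65 for gra2-D and 0.71 for gra3-D. ADC2, the arginine decarboxylase at the start of polyamine synthesis, changed by 0.67 for gra1-D, 0.65 for gra2-D and 0.73 for gra3-D (SE 0.128). Around the methyl donor S-adenosylmethionine, its plastid carrier SAMC1 changed by 0.82 for gra1-D, 0.79 for gra2-D and 0.72 for gra3-D, and MTN1, a nucleosidase that salvages methylthioadenosine, by 0.71 for gra1-D, 0.66 for gra2-D and 0.75 for gra3-D. Of the lignin-related genes, CCoAOMT1, the caffeoyl-CoA O-methyltransferase, changed by 0.81 for gra1-D, 0.78 for gra2-D and 0.82 for gra3-D. CAD9 and ELI3-1, both of the cinnamyl alcohol dehydrogenase family, changed by 0.82, 0.80 and 0.73 and by 0.96, 0.94 and 0.93 in gra1-D, gra2-D and gra3-D.

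In carbon and redox metabolism the 6 genes had medians of 0.65 for gra1-D, 0.65 for gra2-D and 0.69 for gra3-D. ACO1, an aconitase, was the brightest of them. It had 12.17, 12.32 and 12.22 on the gra1-D arrays, 12.13, 12.31 and 12.20 on the gra2-D arrays, 12.27, 12.34 and 12.29 on the gra3-D arrays and 11.54, 11.64 and 11.54 on the WT arrays. Each mutant array of ACO1 exceeded each WT array, with changes of 0.66 for gra1-D, 0.64 for gra2-D and 0.72 for gra3-D (SE 0.0706). PCK1, the phosphoenolpyruvate carboxykinase of gluconeogenesis, changed by 0.58 for gra1-D, 0.63 for gra2-D and 0.66 for gra3-D, and CIB22, a subunit of mitochondrial complex I, by 0.79 for gra1-D, 0.72 for gra2-D and 0.81 for gra3-D. APX3, an ascorbate peroxidase bound to peroxisomes, changed by 0.64 for gra1-D, 0.66 for gra2-D and 0.66 for gra3-D, and ALDH3F1, an aldehyde dehydrogenase, by 0.91 for gra1-D, 0.94 for gra2-D and 0.88 for gra3-D. MIPS1, the inositol phosphate synthase that starts myo-inositol synthesis, was among the least regular of the 59 genes and had 11.77, 11.31 and 11.58 on the gra1-D arrays, 11.76, 11.26 and 11.51 on the gra2-D arrays, 11.38, 11.31 and 11.68 on the gra3-D arrays and 11.28, 10.70 and 10.88 on the WT arrays. In gra2-D its lowest value, 11.26, was under the highest WT value, 11.28, and in gra1-D and gra3-D the lowest, 11.31, was barely above it. The changes of MIPS1 were 0.60 for gra1-D, 0.55 for gra2-D and 0.50 for gra3-D (SE 0.165). The adjusted p by limma of MIPS1 was 0.0526 for gra1-D, 0.0467 for gra2-D and 0.103 for gra3-D. Thus gra1-D and gra2-D lay close to either side of the threshold, and gra3-D lay further above it. The call in gra2-D ended on leaving out any of 7 single arrays, with an adjusted p of up to 0.169 without WT array 2. In gra1-D it was called on leaving out any of 5 single arrays (0.0167 without WT array 1), with the replicate block (0.0063) and under 5 other settings of the fit. In gra3-D it was called without WT array 1 (0.0341) and with the block (0.0164).

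The 4 genes of the vacuolar proton pump had medians of 0.80 for gra1-D, 0.87 for gra2-D and 0.79 for gra3-D. VAB2, a B subunit of the ATP-hydrolysing head, had 10.97, 10.89 and 11.03 on the gra1-D arrays, 10.98, 10.86 and 11.03 on the gra2-D arrays, 10.83, 10.89 and 10.97 on the gra3-D arrays and 10.18, 9.99 and 10.12 on the WT arrays. The changes of VAB2 were 0.87 for gra1-D, 0.86 for gra2-D and 0.80 for gra3-D (SE 0.0764). VHA-A3, the tonoplast isoform of the large membrane subunit, had 10.82, 10.84 and 10.87 on the gra1-D arrays, 10.94, 10.93 and 10.96 on the gra2-D arrays, 10.81, 10.87 and 10.84 on the gra3-D arrays and 10.01, 10.08 and 10.10 on the WT arrays. Its replicates lay within 0.1 of each other in each group, far from WT, and it changed by 0.78 for gra1-D, 0.88 for gra2-D and 0.78 for gra3-D (SE 0.0585). AVA-P1 and VHA-C3 encode the small proteolipid of the membrane ring. They belong to a family of near-identical sequences, and how far their probes tell the copies apart is not known here. VHA-C3 had 12.26, 12.07 and 12.12 on the gra1-D arrays, 12.24, 12.15 and 12.24 on the gra2-D arrays, 12.19, 12.17 and 12.20 on the gra3-D arrays and 11.27, 11.37 and 11.36 on the WT arrays, a change of 0.81 for gra1-D, 0.87 for gra2-D and 0.85 for gra3-D (SE 0.0673). AVA-P1 had 12.07, 12.09 and 11.96 on the gra1-D arrays, 11.96, 11.98 and 11.93 on the gra2-D arrays, 11.94, 12.07 and 12.03 on the gra3-D arrays and 11.39, 11.31 and 11.39 on the WT arrays. The change of AVA-P1, 0.67 for gra1-D, 0.59 for gra2-D and 0.65 for gra3-D (SE 0.0652), was the smallest of the 4 in each mutant. No mutant array overlapped a WT array in any of the 4 genes.

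Among the genes of protein folding, chromatin and RNA, the cyclophilins ROC1 and ROC5 are prolyl isomerases of the cytosol with close relatives elsewhere in the genome, so their signals may be shared in part. ROC1 had 12.40, 12.27 and 12.41 on the gra1-D arrays, 12.37, 12.24 and 12.33 on the gra2-D arrays, 12.11, 12.31 and 12.36 on the gra3-D arrays and 11.43, 11.18 and 11.12 on the WT arrays. The changes of ROC1, 1.11 for gra1-D, 1.07 for gra2-D and 1.01 for gra3-D (SE 0.0924), passed a doubling in every mutant although the gene was bright, while WT array 1 lay above the other WT arrays. ROC5 had 12.29, 12.35 and 12.12 on the gra1-D arrays, 12.26, 12.30 and 12.18 on the gra2-D arrays, 12.11, 12.34 and 12.34 on the gra3-D arrays and 11.53, 11.49 and 11.28 on the WT arrays, and changed by 0.82 for gra1-D, 0.81 for gra2-D and 0.83 for gra3-D (SE 0.0913). Its mutant arrays all lay above its WT arrays. The loci AT4G40030 and AT4G40040 encode histone H3 of the replacement type, and as their coding sequences are nearly alike, their values are uncertain one from the other. AT4G40030 had 12.91, 12.88 and 12.87 on the gra1-D arrays, 12.85, 12.77 and 12.92 on the gra2-D arrays, 12.93, 12.82 and 12.89 on the gra3-D arrays and 12.29, 12.22 and 12.27 on the WT arrays, with changes of 0.63 for gra1-D, 0.59 for gra2-D and 0.62 for gra3-D (SE 0.0637). AT4G40040 had 12.52, 12.40 and 12.44 on the gra1-D arrays, 12.57, 12.38 and 12.48 on the gra2-D arrays, 12.48, 12.35 and 12.47 on the gra3-D arrays and 11.96, 11.87 and 11.97 on the WT arrays, with changes of 0.52 for gra1-D, 0.55 for gra2-D and 0.50 for gra3-D (SE 0.0721). For both loci the mutant arrays were above the WT arrays without overlap, by less than a doubling. PAB2, a poly(A)-binding protein of mRNA stability and translation, changed by 0.65 for gra1-D, 0.59 for gra2-D and 0.64 for gra3-D.

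Both cell wall genes were raised in every mutant. PRP4, a proline-rich wall protein and the second brightest of the 59 genes by WT mean, had 13.89, 13.77 and 13.68 on the gra1-D arrays, 13.87, 13.78 and 13.87 on the gra2-D arrays, 13.65, 13.68 and 13.71 on the gra3-D arrays and 13.35, 13.16 and 13.20 on the WT arrays. The groups of PRP4 did not overlap, and the change was 0.55 for gra1-D, 0.60 for gra2-D and 0.45 for gra3-D (SE 0.0741). XTH7, a xyloglucan endotransglucosylase/hydrolase that remodels wall polymers, changed by 0.998 for gra1-D, 1.05 for gra2-D and 1.004 for gra3-D (SE 0.114).

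Hormone and stress genes had the highest medians among the roles, 0.92 for gra1-D, 1.03 for gra2-D and 0.88 for gra3-D over 6 genes whose WT means lay between 10.28 and 11.16. KAI2, the receptor of karrikins from smoke, had 11.33, 11.39 and 11.38 on the gra1-D arrays, 11.39, 11.46 and 11.35 on the gra2-D arrays, 11.34, 11.39 and 11.37 on the gra3-D arrays and 10.22, 10.26 and 10.36 on the WT arrays. Replicates of KAI2 were tight and far from WT, with changes of 1.08 for gra1-D, 1.12 for gra2-D and 1.08 for gra3-D (SE 0.0633), or 2.12-fold for gra1-D, 2.18-fold for gra2-D and 2.12-fold for gra3-D. RD19, a cysteine protease induced by dehydration, had 11.77, 11.59 and 11.70 on the gra1-D arrays, 11.81, 12.16 and 12.06 on the gra2-D arrays, 11.81, 11.96 and 11.64 on the gra3-D arrays and 10.08, 10.70 and 11.04 on the WT arrays. Its WT arrays spread more than those of any other of the 59 genes (SD 0.486), and still all mutant arrays were higher. The changes of RD19 were 1.08 for gra1-D, 1.40 for gra2-D and 1.20 for gra3-D (SE 0.183). Without WT array 1 they were 0.82, 1.14 and 0.93, so the doubling held in gra2-D alone. PLAT1, a PLAT-domain protein of stress tolerance, changed by 0.99 for gra1-D, 1.13 for gra2-D and 0.85 for gra3-D, and BEE2, a bHLH factor of the early brassinosteroid response, by 0.78 for gra1-D, 0.83 for gra2-D and 0.81 for gra3-D. The small auxin-up RNAs SAUR14 and SAUR16 changed by 0.86, 0.94 and 0.92 and by 0.47, 0.67 and 0.72 in gra1-D, gra2-D and gra3-D. The call of SAUR16 in gra1-D ended without WT array 2 (limma adjusted p = 0.0786), WT array 3 (0.0769) or gra1-D array 2 (0.0628).

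The other 13 genes are named here without a role, MEE59 and 12 loci known by their identifiers, with medians of 0.73 for gra1-D, 0.66 for gra2-D and 0.71 for gra3-D. AT4G35750 had 11.32, 11.14 and 11.16 on the gra1-D arrays, 11.38, 11.30 and 11.32 on the gra2-D arrays, 11.32, 11.24 and 11.37 on the gra3-D arrays and 10.10, 10.02 and 10.21 on the WT arrays. With tight replicates and no overlap, it changed by 1.103 for gra1-D, 1.23 for gra2-D and 1.20 for gra3-D (SE 0.0743), a doubling or more in each mutant. AT4G33865 had 12.96, 13.02 and 12.80 on the gra1-D arrays, 12.99, 12.73 and 12.89 on the gra2-D arrays, 13.07, 12.93 and 12.99 on the gra3-D arrays and 12.42, 12.49 and 12.44 on the WT arrays. It was the brightest of the 13 and among the least changed, 0.47 for gra1-D, 0.42 for gra2-D and 0.55 for gra3-D (SE 0.0814), again without overlap. The lowest change of the 13 in gra2-D was that of AT4G36390, 0.59 for gra1-D, 0.40 for gra2-D and 0.59 for gra3-D, and the lowest in gra3-D that of AT4G34290, 0.57 for gra1-D, 0.42 for gra2-D and 0.53 for gra3-D. The call of AT4G34290 in gra2-D ended without WT array 1 (limma adjusted p = 0.0556). AT4G33640 changed by 1.096 for gra1-D, 0.87 for gra2-D and 1.06 for gra3-D, AT4G37510 by 0.89 for gra1-D, 0.73 for gra2-D and 0.92 for gra3-D, and AT4G33670 by 0.85 for gra1-D, 0.86 for gra2-D and 0.89 for gra3-D. AT4G38250 changed by 0.83 for gra1-D, 0.92 for gra2-D and 0.70 for gra3-D, and AT4G34450 by 0.77 for gra1-D, 0.77 for gra2-D and 0.86 for gra3-D. MEE59 changed by 0.73 for gra1-D, 0.66 for gra2-D and 0.79 for gra3-D, AT4G36530 by 0.62 for gra1-D, 0.61 for gra2-D and 0.71 for gra3-D, AT4G37830 by 0.64 for gra1-D, 0.63 for gra2-D and 0.66 for gra3-D and AT4G39970 by 0.65 for gra1-D, 0.66 for gra2-D and 0.64 for gra3-D.

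The median change rose along the stretch in gra1-D and gra2-D and had no such order in gra3-D. Split in order of locus, the first 20 genes (DHS2 to CAT2) had medians of 0.72 for gra1-D, 0.65 for gra2-D and 0.72 for gra3-D. The next 20 (HCF244 to AT4G38250) had 0.76, 0.73 and 0.79, and the last 19 (VAB2 to AT4G40040) had 0.78, 0.78 and 0.73. The first of these sets was also the brightest, with a median WT mean of 11.08 against 10.33 and 10.67.

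The differences between mutants were tested with limma over all rows. The level that chose the 59 genes is that of WT, but the stretch was limited to loci raised in all 3 mutants and so leaves out loci before it on which the mutants differ, and a low number of calls is in part set by that choice. No gene of the 59 was called in gra2-D against gra1-D, in gra3-D against gra1-D or in gra3-D against gra2-D, where 1.23%, 0.221% and 0.89% of all rows were. At an unadjusted p under 0.05 there were 2, 1 and 7 genes, beside 8.86%, 3.86% and 9.91% of all rows. The differences ran from -0.23 to 0.33 for gra2-D minus gra1-D, -0.14 to 0.25 for gra3-D minus gra1-D and -0.28 to 0.27 for gra3-D minus gra2-D, with medians of -0.01, 0.01 and 0.03. The 95% interval of a difference, not adjusted over rows, had a median half-width of 0.159 log2 units, and differences of up to 0.33 were not called after adjustment. The interval lay within 0.5 on either side of 0 for 58, 58 and 57 of the 59 genes. Within a gene, the highest and lowest of the 3 changes differed by a median of 0.09, and for 52 genes by under 0.2.

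The 5 widest differences between mutants were picked after their values were seen. The widest was that of RD19, with 11.81, 12.16 and 12.06 on gra2-D arrays, against 11.77, 11.59 and 11.70 on gra1-D arrays, a difference of 0.33 (95% interval -0.0684 to 0.719, limma adjusted p = 0.674). PLAT1 had 11.81, 12.05 and 12.15 on gra3-D arrays, against 12.40, 12.19 and 12.25 on gra2-D arrays, a difference of -0.28 (interval -0.507 to -0.0491, adjusted p by limma = 0.39). J11 had 12.15, 12.08 and 11.89 on gra3-D arrays, against 11.62, 11.82 and 11.85 on gra2-D arrays, a difference of 0.27 (interval 0.0879 to 0.459, limma adjusted p = 0.264). The arrays of the 2 mutants did not overlap in RD19, PLAT1 or J11, and none of the 3 passed the adjustment. Picking the widest differences favours a lack of overlap, and its share over all rows is not given, so nothing is read from it. SAUR16 had 11.10, 10.93 and 11.02 on gra3-D arrays, against 10.71, 11.02 and 10.57 on gra1-D arrays, which overlap, a difference of 0.25 (interval 0.02 to 0.480, limma adjusted p = 0.9999). AT4G33640 had 10.94, 10.91 and 10.84 on gra2-D arrays, against 11.13, 11.16 and 11.09 on gra1-D arrays, without overlap, a difference of -0.23 (interval -0.383 to -0.0715, limma adjusted p = 0.268).

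**Figure D4:**
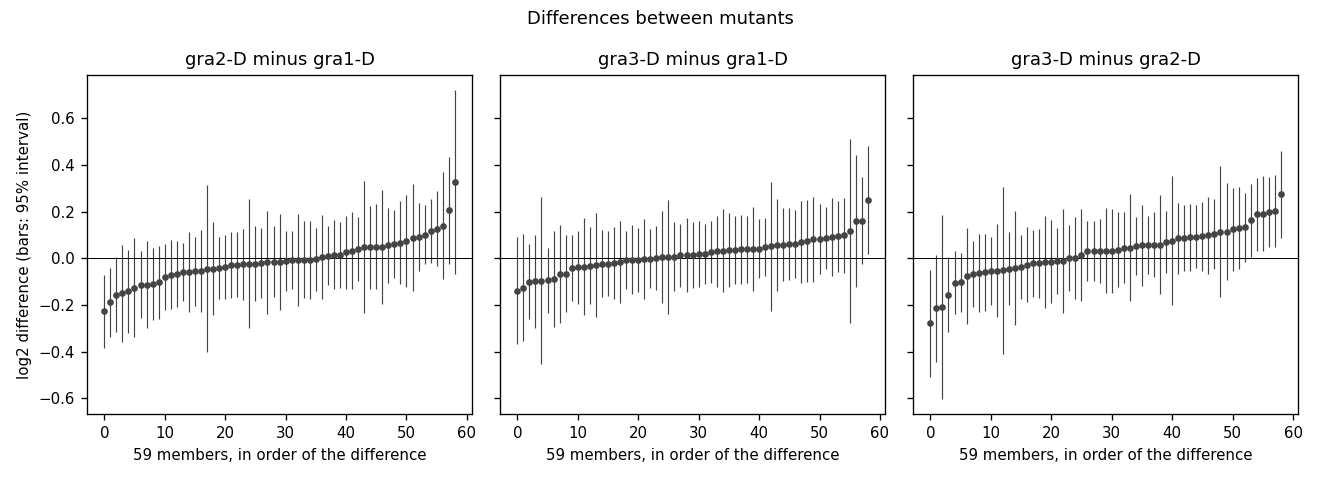
Differences between mutants for the 59 genes, each panel in order of the difference (points) with 95% intervals (bars) in log2 units. The intervals leave out 0 for 2, 1 and 7 genes from left to right, and the points run between -0.28 and 0.33.

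Other genes of 6 pathways and families, most of them elsewhere in the genome, were compared with WT by the same fit. The 59 genes have members in 5 of the 6 lists and none in that of plasma membrane aquaporins. The 6 lists held 86 genes, of which 69 were measured and 56 lay outside the raised part of chromosome 4. Of these 56, 0 were called higher and 4 lower in gra1-D, 1 higher and 6 lower in gra2-D, and 1 higher and 1 lower in gra3-D. Of all rows outside, 0.919% were called higher and 2.82% lower for gra1-D, 2.63% and 6.47% for gra2-D and 0.949% and 3.05% for gra3-D. The median change of the 56 genes was -0.09 for gra1-D, -0.06 for gra2-D and -0.07 for gra3-D, and 44 of them had a WT mean of 10 or more. Over the 1348 outside rows of that level the medians were much the same, -0.08, -0.08 and -0.07. In photorespiration, 12 genes elsewhere had medians of -0.13 for gra1-D, -0.13 for gra2-D and -0.12 for gra3-D, with 3, 5 and 0 called lower and 0 called higher (6, 6 and 3 at an unadjusted p under 0.05 by limma). Named after their values were seen, the calls were GGT1, AT1G80380 and AT1G32470 in gra1-D and GGT1, AT1G80380, GLDP2, GS2 and GLU1 in gra2-D. GGT1, the peroxisomal glutamate:glyoxylate aminotransferase, changed by -0.26 in gra1-D and -0.26 in gra2-D (limma adjusted p = 0.0448 and 0.0281). GLU1, a ferredoxin-dependent glutamate synthase, changed by -0.43 in gra2-D (adjusted p by limma = 0.014). AT1G80380 changed by -0.37 in gra1-D and -0.46 in gra2-D (limma adjusted p = 0.0073 and 0.000791), and these calls held without any 1 of the 12 arrays. Leaving out 1 array at a time, those of GGT1 held in 2 of 12 fits for gra1-D and 7 of 12 for gra2-D, those of GLU1 in 10 of 12 (adjusted p of up to 0.058 without WT array 1) and those of GLDP2 in 8 of 12 (up to 0.148 without gra2-D array 2), while those of AT1G32470 and GS2 ended whichever array was left out. With arrays centred on chromosomes 1, 2, 3 and 5 the calls of GGT1 (limma adjusted p = 0.106) and AT1G32470 (0.146) in gra1-D and of GS2 in gra2-D (0.098) ended, and with the replicate block that of AT1G32470 did (0.0508). GLDP1, a P protein of glycine decarboxylase whose locus precedes the stretch, changed by -0.12 for gra1-D, 0.50 for gra2-D and 0.51 for gra3-D (limma adjusted p = 0.584, 0.0026 and 0.0032).

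In the Calvin-Benson cycle, beside FBA2 in the stretch, 12 genes elsewhere had medians of -0.11, -0.11 and -0.09, and 1 was called lower in each mutant. This was EMB3119, with 12.31, 12.41 and 12.29 on gra1-D arrays, 12.35, 12.31 and 12.34 on gra2-D arrays, 12.39, 12.32 and 12.40 on gra3-D arrays and 12.60, 12.65 and 12.58 on WT arrays. The groups did not overlap and the changes were -0.27 for gra1-D, -0.28 for gra2-D and -0.24 for gra3-D (SE 0.061, limma adjusted p = 0.0165, 0.0085 and 0.0312). Leaving out 1 array at a time, the call of EMB3119 held in 9 of 12 fits for gra1-D, 12 for gra2-D and 6 for gra3-D, with an adjusted p of up to 0.137 without gra3-D array 2. With arrays centred on chromosomes 1, 2, 3 and 5 it ended in gra3-D (limma adjusted p = 0.062).

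In the vacuolar ATPase, the 10 measured genes elsewhere had medians of -0.02 for gra1-D, 0.0069 for gra2-D and -0.0012 for gra3-D and a range from -0.18 to 0.17 over the 3 mutants, and by limma 0 were called (1, 0 and 1 at an unadjusted p under 0.05). Among cyclophilins, the stretch holds ROC1, ROC5 and the dimmer AT4G34960, which changed by 1.11 for gra1-D, 1.19 for gra2-D and 1.16 for gra3-D. The 7 elsewhere had medians of -0.11, -0.11 and -0.09, with 0 called by limma and 1, 2 and 2 at an unadjusted p under 0.05. For histone H3, the 6 loci elsewhere had medians of 0.04, 0.0011 and 0.008. Single loci among them ran from -0.25 to 0.20 over the 3 mutants, with 0 called by limma and 1 in each mutant at an unadjusted p under 0.05. At the shares of all outside rows given above, few or no calls would fall in lists of this size. Plasma membrane aquaporins, 9 measured and all elsewhere, had medians of 0.09, 0.09 and 0.07, and PIP2E, named after its values were seen, was called higher in gra2-D (0.35, limma adjusted p = 0.0037) and gra3-D (0.28, limma adjusted p = 0.023). The gra3-D call of PIP2E held in 9 of 12 fits without 1 array, with an adjusted p of up to 0.0962 without WT array 3.

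**Figure D5:**
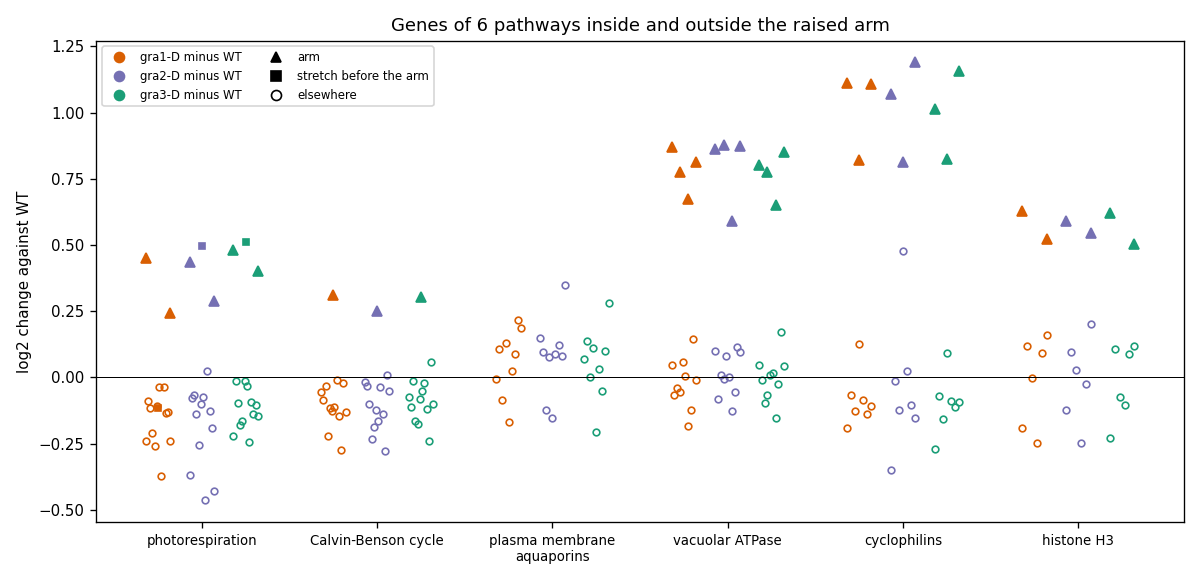
Log2 change against WT of the measured genes of 6 pathway lists, gra1-D, gra2-D and gra3-D from left to right within each list. Filled triangles are genes of the raised stretch, filled squares the gene before it (GLDP1) and open circles genes elsewhere. Triangles lie between 0.24 and 1.19, and circles between -0.46 and 0.48.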

How the data were processed

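Transcript levels were measured on 12 one-colour ATH1 arrays, 3 per group, with separate biological samples on separate arrays. Log2 values, 1 row per locus, are as the authors deposited them and were made with RMA (version not given), per the submitters' processing notes. How probes were assigned to loci and the genome build are not given in the sources used here, so no coordinates or sequences are printed. All 59 genes matched the RefSeq gene table of TAIR10.1, 42 with a symbol of their own.

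Group means were fitted to all 20777 rows with limma (version 3.58.1 under R 4.3.3, lmFit then eBayes, residual df 8, prior df 5.28), two-sided, with Benjamini-Hochberg adjustment over all rows of a contrast and calls at an adjusted p under 0.05. The fit was tested on simulated data. The number of arrays limits the precision, and p-values set a group difference against the spread between these arrays. No low-value filter was applied.

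The genes, lists, level classes and tests were chosen with earlier results of these data known. Values on every array are given for the 10 genes with the highest WT mean, the 5 largest and 5 smallest mean changes and the genes in pathway lists, and the rule for list genes outside the stretch, a call in all 3 mutants, names EMB3119 alone. Other list genes were named after their values were seen. Same-numbered arrays of WT, gra1-D and gra2-D deviated together from their group means (correlations of 0.239 to 0.390 in 9 of 9 pairs), while of the 9 pairs with a gra3-D array 6 were at or under 0.1. Blocked values are therefore printed where they change a call of the genes described here or end a call in the pathway lists. Pathway genes that gained a call with the block are not named, and enter only the counts of called genes. Alternatives were leaving out each array, a replicate block, further normalization or centring, an intensity trend, array weights, fits of 2 groups, a filter at 6, and other level thresholds. A planned count of promoter motifs was not run.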

Additional observations from a re-analysis of the deposited data

How the results depend on the processing

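Changes of single genes against WT were recomputed under 19 alternatives to the fit, 3363 in all (59 genes, 3 mutants). Of these, 3334 kept direction and call, 14 lost the call, 15 gained it and 0 turned direction. The stretch was bounded on this same difference and the alternatives use the same arrays, so these counts are a description only. The changed calls were those of 5 genes, MIPS1, SAUR16, CAT2, AT4G34290 and FBA2, whose gra2-D call ended with only the 2 groups compared (limma adjusted p = 0.0565). With only those groups, the calls of SAUR16 in gra1-D (0.0656) and MIPS1 in gra2-D (0.0657) also ended. Members called higher without 1 array numbered 56 to 58 in gra1-D, 57 to 58 in gra2-D and 57 to 59 in gra3-D, and 0 were called between mutants under any alternative.

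With a replicate block, 58, 58 and 59 of the 59 genes were called in gra1-D, gra2-D and gra3-D, adding CAT2 in gra3-D (limma adjusted p = 0.0204) and MIPS1 in gra1-D and gra3-D (0.0063 and 0.0164). Pathway genes called outside the raised part numbered 4 in gra3-D with the block, against 2 without it.

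The median change of the genes (0.74 in gra1-D, 0.72 in gra2-D, 0.75 in gra3-D) was 0.78, 0.78 and 0.78 with a WT threshold of 9 (99 genes), 0.67, 0.64 and 0.67 with 11 (28 genes), and 0.80, 0.79 and 0.80 with genes chosen on the mutant arrays (96 genes). It was 0.78, 0.74 and 0.78 with arrays centred on chromosomes 1, 2, 3 and 5, and 0.76, 0.74 and 0.76 after quantile normalization. Chosen on WT array 1 with changes against the other 2, it was 0.74, 0.74 and 0.77. Chosen on WT array 2 it was 0.73, 0.71 and 0.73, and on WT array 3 it was 0.75, 0.72 and 0.77. Without 1 array it ranged from 0.72 to 0.75 in gra1-D, 0.71 to 0.73 in gra2-D and 0.73 to 0.77 in gra3-D. The cause of these shifts was not tested.

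Centring gave class medians of 0.91 in gra1-D and 0.91 in gra2-D at 8 to 10, 0.82 in gra1-D and 0.83 in gra3-D at 10 to 11, and 0.77 in gra1-D and 0.77 in gra3-D at 11 to 12. It left 2 pathway genes called outside in gra1-D and 1 in gra3-D. Classes set by the mean over all arrays gave 0.90 in gra1-D and 0.93 in gra2-D at 8 to 10, 0.77 in gra3-D at 11 to 12, and 0.57 in gra2-D and 0.53 in gra3-D at 12 and over. Without 1 array the class medians ranged, for gra1-D, gra2-D and gra3-D, from 0.85 to 0.88, 0.85 to 0.89 and 0.87 to 0.90 at 8 to 10, from 0.78 to 0.80, 0.73 to 0.78 and 0.78 to 0.82 at 10 to 11, from 0.70 to 0.74, 0.69 to 0.74 and 0.72 to 0.77 at 11 to 12, and from 0.42 to 0.49, 0.39 to 0.47 and 0.44 to 0.52 at 12 and over. Pathway genes called outside numbered 1 to 3 in gra1-D, 3 to 7 in gra2-D and 0 to 2 in gra3-D without 1 array. The lowest counts came in gra1-D without WT array 2 or gra1-D array 1 or 3, in gra2-D without WT array 1 or gra2-D array 2, and in gra3-D without WT array 3 or gra3-D array 2 or 3.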
